A study of Mus musculus with 6 samples.

Results

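Kinesins are motor proteins that use ATP to walk along microtubules or to take microtubule ends apart. One set builds and remodels the mitotic spindle, moves chromosomes and prepares the cell for cytokinesis, and the transcripts of many of its members are known to be most abundant late in the cell cycle. Many of the others carry vesicles, organelles and ciliary cargo, or have roles outside dividing cells. The kinesin motor genes were taken as all genes with a probe set whose only annotated symbol is Kif followed by a digit, together with Kifc1, a spindle motor named as a mitotic member in its own right. This gave 39 of the 22180 genes on the array, of which 12 were mitotic and 27 were other kinesins. The mitotic genes were Kif2c, Kif4, Kif11, Kif14, Kif15, Kif18a, Kif18b, Kif20a, Kif20b, Kif22, Kif23 and Kifc1. This split is not strict. Kif2a, which also acts at spindle poles, was counted with the others, and the kinetochore kinesin Cenpe lay outside the choice by symbol.

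RNA came from mouse BCR-ABL+ B-ALL cells (B-cell acute lymphoblastic leukaemia), precursors of B cells driven by the BCR-ABL tyrosine kinase. They were exposed for 4 h to 312 nM dihydroartemisinin (DHA, the active metabolite of the artemisinin antimalarial drugs) or to the vehicle dimethyl sulphoxide (DMSO), with 3 Affymetrix arrays per group. The growth conditions cover p185+ or p185T315I+ cells lacking Arf or p53, and the labels do not say which of these lines was on the arrays or whether each array came from a separate culture. The p-values therefore rest on the spread among these 6 arrays, which may be technical. The series concerns how DHA affects MCL-1 and sensitivity to navitoclax, and kinesins were not its stated subject.

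Array medians lay between 5.25 and 5.31 on the log2 scale, and correlations between arrays between 0.9925 and 0.9947. Among B-cell precursor markers, 9 of 10 had a probe set of their own, with gene means between 4.78 (Vpreb1) and 12.98 (Igll1), both parts of the surrogate light chain. Markers of T and NK cells, myeloid cells and erythroid cells or megakaryocytes had gene means between 3.33 and 5.59, stromal and endothelial markers between 3.76 (Dcn) and 9.43 (Pecam1), and no marker passed the test. The stress-response transcription factor gene Ddit3 measured 10.13, 9.56 and 10.19 with DHA, against 7.62, 7.46 and 7.36 with DMSO (limma adjusted p = 0.0225). In bulk samples, fewer cells in mitosis and less of a transcript per cell cannot be told apart.

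No kinesin gene passed the test across all genes. Even so, 8 of the 12 mitotic kinesin genes had all 3 DHA arrays below all 3 DMSO arrays, beside 8.19% of all tested genes. The differences of these 8 were -0.26 to -0.15 on the log2 scale, and Kif2c and Kif22 showed the greatest. The spindle motors Kif11 and Kif15 and the astral microtubule motor Kif18b lay at or slightly above the DMSO level. The other kinesins centred on 0. At an unadjusted p at or under 0.05, 1 of the 23 tested was lower, the ciliary and transport motor Kif3a, and 0 were higher. Of all tested genes, 6.08% were lower and 5.94% higher at that threshold.

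The test was limma on the log2 values, DHA minus DMSO, two-sided, with Benjamini-Hochberg adjustment over the 15526 genes whose mean reached the 30th percentile (4.52). Of the 39 kinesin genes, 35 reached it, all 12 mitotic genes among them. At an adjusted p at or under 0.05, limma called 0 of the 35 kinesins, against 14 genes (0.0902%) of all tested, 13 higher (0.0837%) and 1 lower (0.00644%), and the lowest adjusted p of a kinesin was 0.142. At an unadjusted p at or under 0.05, 8 of the 12 mitotic genes were lower with DHA, where 6.08% of all tested genes were, and 0 were higher, beside 5.94%. The groups did not overlap, with DHA lower, in those same 8 genes, against 8.19% of all tested genes. With DHA higher they did not overlap in 0 of the 12, against 7.64%. These genes were measured on the same 6 arrays and are not independent of one another. In simulated data the adjusted test recovered 10.84% of true changes of 0.25 on the log2 scale. It thus missed most changes of that size.

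The count of 8 at an unadjusted p changed in most fits that left out 1 array. Such fits have fewer arrays, and the share of all tested genes at that threshold was not computed for them. It was 3 without DHA replicate 1, 4 without DHA replicate 2 or without DMSO replicate 3, 5 without DMSO replicate 2, 7 without DMSO replicate 1 and 8 without DHA replicate 3.

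The promoters are shown first, because the mitotic kinesins share a feature there that the choice of genes did not use. Cell-cycle genes homology regions (CHR, searched as TTTGAA and TTTAAA) and CCAAT boxes (searched as CCAAT), both on either strand, are the elements through which the DREAM and MuvB complexes and NF-Y are known to act on G2/M genes. RefSeq promoters (build GRCm38.p6), from 250 bases before the transcription start to 50 after it, were matched for 32 of the 39 genes, 11 mitotic and 21 other. Of the 32544 promoters, only the first listed for each gene was used, so matches at other starts of a gene are not counted. A CHR was found in 10 of 11 mitotic promoters, in 2 of 21 other kinesin promoters and in 27.67% of the 26742 genes with a promoter. Within 30 bases of the start, a distance chosen after the matches were seen, it was found in 8 of 11, 1 of 21 and 4.94%. A CCAAT box was found in 7 of 11, 8 of 21 and 37.88%. These are matches of letters and not shown binding sites.

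The 250 bases before the start are printed for Kif22 and Kif2c, which had the greatest mitotic differences, for Kif11, which was not lower, and for Kif3a, the other kinesin with the smallest p. Capitals mark the CHR letters (TTTGAA or TTTAAA, or TTCAAA where the match is on the opposite strand) and CCAAT letters (ATTGG on the opposite strand).
Kif22 (chr7:127042421-127042670, minus strand): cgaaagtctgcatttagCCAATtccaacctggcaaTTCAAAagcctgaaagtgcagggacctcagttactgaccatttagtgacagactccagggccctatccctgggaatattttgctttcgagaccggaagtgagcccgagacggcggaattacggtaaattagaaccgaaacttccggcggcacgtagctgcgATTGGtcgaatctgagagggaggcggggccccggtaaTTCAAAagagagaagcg
Kif2c (chr4:117178773-117179022, minus strand): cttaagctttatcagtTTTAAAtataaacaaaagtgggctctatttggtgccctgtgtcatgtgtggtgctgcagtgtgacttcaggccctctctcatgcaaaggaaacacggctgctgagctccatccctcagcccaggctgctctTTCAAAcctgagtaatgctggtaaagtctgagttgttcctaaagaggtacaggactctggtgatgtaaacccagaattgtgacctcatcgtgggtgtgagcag
Kif11 (chr19:37376132-37376381, plus strand): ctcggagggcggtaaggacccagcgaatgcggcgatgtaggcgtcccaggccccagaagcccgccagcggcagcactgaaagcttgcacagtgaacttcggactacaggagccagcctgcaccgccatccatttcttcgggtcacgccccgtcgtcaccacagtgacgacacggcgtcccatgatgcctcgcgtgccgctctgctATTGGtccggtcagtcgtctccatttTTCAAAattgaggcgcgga
Kif3a (chr11:53567119-53567368, plus strand): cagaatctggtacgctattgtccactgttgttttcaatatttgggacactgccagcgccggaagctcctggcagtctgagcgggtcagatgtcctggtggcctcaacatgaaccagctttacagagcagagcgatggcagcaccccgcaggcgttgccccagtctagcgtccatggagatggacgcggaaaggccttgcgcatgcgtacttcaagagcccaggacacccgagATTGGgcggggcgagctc
The Kif22 and Kif11 promoters resemble each other close to the start: each has a CCAAT box on the opposite strand followed by a CHR on the opposite strand, from -54 and -17 in Kif22 and from -45 and -19 in Kif11. Kif22 has a further pair upstream, from -233 and -215. Kif2c has its CHR matches farther away, from -234 and -103, and no CCAAT box in this window. Kif3a has a CCAAT box from -18 and no CHR. A CHR was found in 6 of the 7 promoters of mitotic genes whose groups did not overlap and in 4 of the 4 whose groups overlapped. With a CHR in nearly every mitotic promoter, these shares could hardly differ. Among the 11 mitotic promoters searched, that of Kif18a, lower with DHA, was the one with neither match. No promoter was matched for Kif20a, also lower with DHA.

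**Figure D1:**
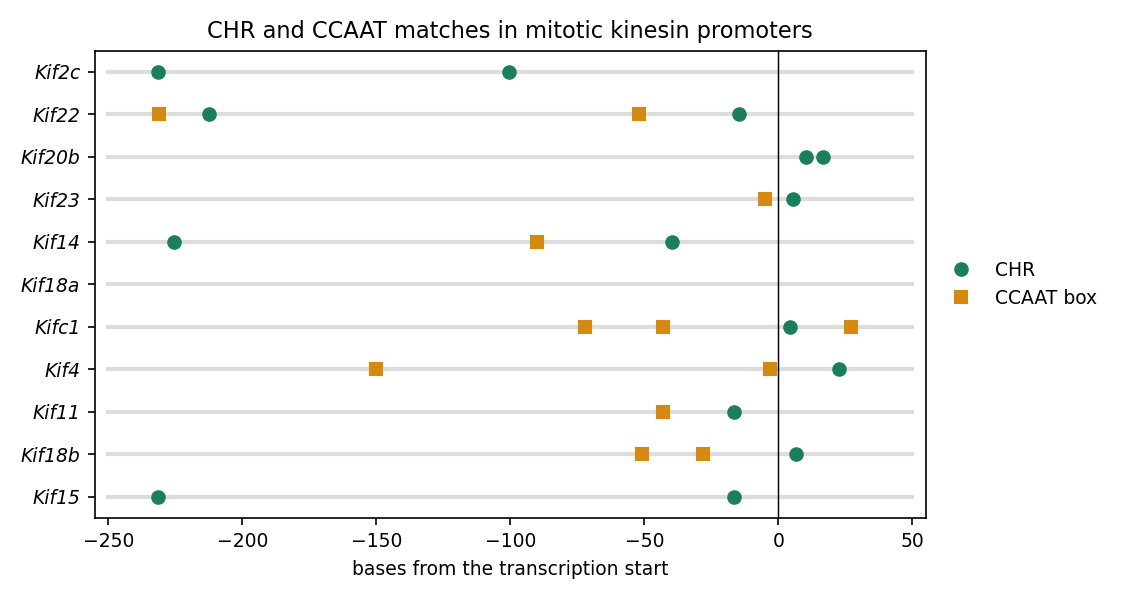
Positions of CHR matches (circles) and CCAAT boxes (squares) in the promoters of 11 mitotic kinesin genes, in bases from the transcription start on the x axis, with genes ordered down the page from the lowest to the highest DHA minus DMSO difference. CHR matches lie within 30 bases of the start in 8 of the 11 genes, among them the 4 genes at the bottom whose groups overlap.

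Among the midzone and cytokinesis motors, 4 of 4 had every DHA array below every DMSO array, where 8.19% of all tested genes did. Kif4, which also acts at the midzone, was placed with the motors of chromosome arms instead, and its groups overlapped. Kif23, a subunit of centralspindlin, which bundles midzone microtubules, measured 10.09, 10.10 and 10.13 with DHA, against 10.22, 10.47 and 10.27 with DMSO. The difference was -0.22 (SE 0.072; limma unadjusted p = 0.0207, adjusted p = 0.321), and the DHA arrays lay close together while DMSO replicate 2 stood above the other DMSO arrays. Kif20a, which carries the chromosomal passenger complex to the midzone, measured 10.18, 10.23 and 10.35 with DHA, against 10.37, 10.43 and 10.43 with DMSO. The gap between the groups was narrow there, with DHA replicate 3 just under DMSO replicate 1, and the difference was -0.15 (SE 0.058; limma adjusted p = 0.371). Kif20b, a relative of Kif20a needed for the completion of cytokinesis, measured 8.90, 8.89 and 8.92 with DHA, against 8.98, 9.28 and 9.17 with DMSO (difference -0.24, SE 0.079; limma adjusted p = 0.314). Its spread came from the DMSO arrays, whose SD was 0.15, against 0.011 for DHA (n = 3 each). Kif14, which binds PRC1 and citron kinase at the midbody, measured 8.79, 8.95 and 8.97 with DHA, against 9.01, 9.12 and 9.21 with DMSO (difference -0.21, SE 0.073; limma adjusted p = 0.343). DHA replicate 1 was the lowest of the 6 arrays for Kif14.

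Motors that act on microtubule ends differed among themselves. Kif2c, which encodes MCAK, a depolymeriser that corrects wrong kinetochore attachments, measured 9.23, 9.29 and 9.27 with DHA, against 9.57, 9.57 and 9.44 with DMSO. Its level with DHA was 0.836 times that with DMSO, a log2 difference of -0.26 (SE 0.055, 95% interval -0.39 to -0.13; limma unadjusted p = 0.0023, adjusted p = 0.151). Kif18a, which dampens chromosome oscillations at the metaphase plate, measured 8.72, 8.58 and 8.73 with DHA, against 8.83, 8.96 and 8.85 with DMSO. Its difference was -0.20 (SE 0.063; limma adjusted p = 0.288), and DHA replicate 2 was the lowest array. Kif18b, a related motor that limits the length of astral microtubules, measured 10.15, 10.25 and 10.25 with DHA, against 10.19, 10.13 and 10.28 with DMSO. The groups overlapped for Kif18b and the 95% interval of its difference ran from -0.12 to 0.15 (difference 0.016), which does not reach the Kif18a value of -0.20. The difference between these genes was not tested.

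The chromokinesins, which bind chromosome arms, included the gene with the smallest p of the family. Kif22, which pushes chromosome arms away from the poles, measured 9.53, 9.64 and 9.52 with DHA, against 9.81, 9.81 and 9.81 with DMSO. Its level with DHA was 0.845 times that with DMSO, a difference of -0.24 (SE 0.050, 95% interval -0.36 to -0.12; limma unadjusted p = 0.0021, adjusted p = 0.142). The DMSO values of Kif22 were almost the same, with an SD of 0.0007, against 0.067 for DHA (n = 3 each). Kif4, which organises chromosomes and the midzone, measured 8.46, 8.49 and 8.55 with DHA, against 8.55, 8.65 and 8.52 with DMSO. The groups overlapped, with a difference of -0.073 (SE 0.054; limma adjusted p = 0.641). Kif4-ps, a transcribed pseudogene of Kif4 that the symbol rule also takes, had a difference of 0.11 (SE 0.14), and how far its probes share sequence with Kif4 was not analysed here.

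Motors that set up the bipolar spindle were mostly level. Kif11, which encodes Eg5, the motor that pushes the poles apart, measured 11.30, 11.28 and 11.35 with DHA, against 11.24, 11.35 and 11.30 with DMSO. The groups overlapped, and the 95% interval of the difference, -0.10 to 0.13, lay above the values of all 8 mitotic genes whose groups did not overlap. The intervals of Kif14, Kif18a, Kif20a, Kif20b, Kif23 and Kifc1, with upper ends from -0.053 to -0.015, overlapped that of Kif11. Differences between these genes were not tested. Kif15, which can take over part of the work of Eg5, measured 10.12, 10.08 and 10.10 with DHA, against 9.96, 10.11 and 10.13 with DMSO (difference 0.036, SE 0.059; limma adjusted p = 0.845). DMSO replicate 1 was the lowest array for Kif15. Kifc1, a minus-end motor that focuses the poles, measured 6.35, 6.41 and 6.43 with DHA, against 6.58, 6.45 and 6.63 with DMSO (difference -0.16, SE 0.060; limma adjusted p = 0.369). Its close relative Kifc5b, which is no member, had a difference of 0.042 (SE 0.20), and whether the probes of either gene also read the other was not analysed here.

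**Figure D2:**
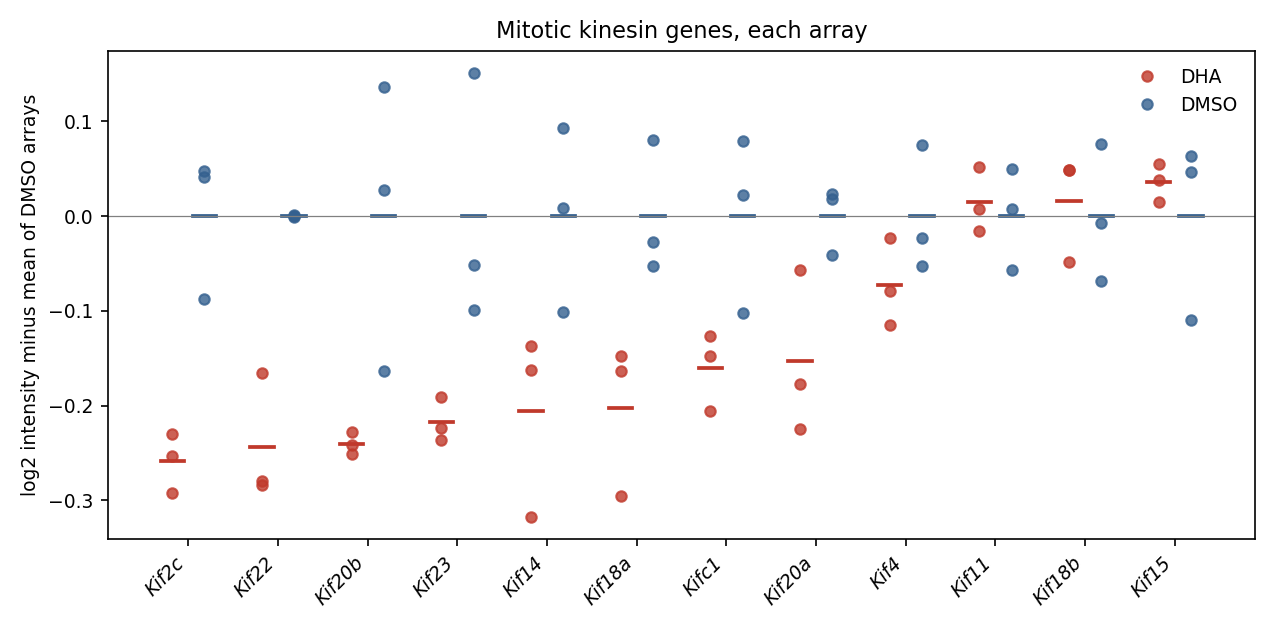
Log2 intensity of each mitotic kinesin gene in each array, minus the mean of its 3 DMSO arrays (y axis), with DHA points left of DMSO points and short lines at group means. From Kif2c to Kif20a the DHA points lie under the DMSO points, and from Kif4 to Kif15 they overlap.

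As a set, the 12 mitotic genes had a median log2 difference of -0.18, beside 0.0027 over all genes tested, and 9 of 12 were lower, beside 48.6% of all tested genes, and 3 were higher, beside 51.4%. The 23 other kinesins above the filter had a median of 0.0060, with 10 lower and 13 higher. In each array, the median deviation of the mitotic genes from their DMSO means was -0.22, -0.16 and -0.13 for DHA replicates 1, 2 and 3, against -0.047, 0.047 and 0.013 for DMSO replicates 1, 2 and 3. DHA replicate 1 gave the lowest of the 6 values in 6 of the 12 mitotic genes, beside 2588 of the 15526 genes tested. DMSO replicate 2 gave the highest in 7 of the 12, beside 2939 of the 15526. The same medians for the other kinesins were -0.026, -0.018 and 0.014 with DHA, against 0, 0 and -0.013 with DMSO. Those groups overlapped.

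**Figure D3:**
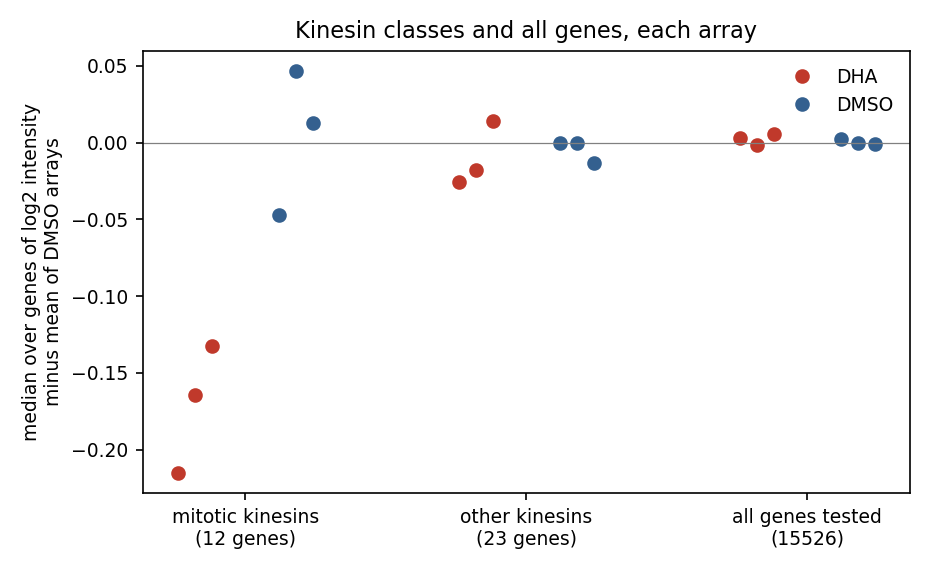
Median over genes of the log2 intensity minus each gene's DMSO mean (y axis), for 12 mitotic kinesins, 23 other kinesins and all 15526 genes tested, with 1 point per array and DHA left of DMSO. The mitotic medians lie at -0.22 to -0.13 with DHA and at -0.047 to 0.047 with DMSO, while the other kinesins stay between -0.026 and 0.014 in both groups.

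Among the other kinesins, the transport and ciliary motors of the Kif3 type held the one with the smallest p. Kif3a, a motor subunit, measured 5.72, 5.72 and 5.81 with DHA, against 6.01, 5.94 and 5.89 with DMSO. The groups did not overlap, and the difference was -0.20 (SE 0.054, 95% interval -0.32 to -0.068; limma unadjusted p = 0.0086, adjusted p = 0.243). Its partner Kif3b measured 6.82, 6.75 and 6.72 with DHA, against 6.97, 6.84 and 6.79 with DMSO (difference -0.10, SE 0.061), and the groups overlapped. Kif3c, an alternative partner of Kif3a, had a difference of 0.0026, with 1 identical value in the 3 DMSO arrays. Kif17, a further member of that family, had -0.024. Kifap3, the adaptor that joins the Kif3 motors to cargo and is named here after its value was seen, had -0.075 (SE 0.052; limma adjusted p = 0.608).

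The cargo carriers lay near their DMSO levels. Kif5b, the ubiquitous heavy chain of conventional kinesin, measured 10.02, 9.96 and 10.15 with DHA, against 10.09, 10.22 and 10.09 with DMSO (difference -0.088, SE 0.068). A second, dimmer Kif5b probe set gave 0.11 in the other direction. Kif1c, a carrier of dense vesicles, measured 6.98, 6.95 and 6.88 with DHA, against 6.98, 7.01 and 7.05 with DMSO. The Kif1c groups did not overlap, by a margin smaller than the spread within each, and the difference was -0.081 (SE 0.049; limma adjusted p = 0.555). Thus the groups did not overlap in 2 of the 23 other kinesins, Kif1c and Kif3a, with DHA lower, and in 0 with DHA higher. That is close to the share of all tested genes, 8.19% with DHA lower, beside 7.64% with DHA higher.

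Kif1b, a carrier of mitochondria and synaptic vesicle precursors, measured 5.42, 5.33 and 5.33 with DHA, against 5.24, 5.27 and 5.33 with DMSO (difference 0.080, SE 0.051). Kif13a, an endosomal motor, measured 6.75, 6.54 and 6.85 with DHA, against 6.88, 6.88 and 6.75 with DMSO (difference -0.12, SE 0.088). DHA replicate 2 alone was low for Kif13a. Kif13b, a carrier of phosphoinositide-bound cargo, had -0.069 (SE 0.076), with 7.95, 7.93 and 8.01 with DHA, against 8.18, 7.91 and 7.9995 with DMSO. Kif16b, a motor of early endosomes, had -0.035 (SE 0.064), with 7.86, 7.78 and 7.97 with DHA, against 7.92, 7.95 and 7.83 with DMSO. The groups overlapped in both genes.

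Among the 23 other kinesins above the filter, the highest difference was that of Kif21b, a motor that limits microtubule growth in lymphocytes and neurons. It measured 8.19, 8.04 and 8.28 with DHA, against 8.18, 8.003 and 7.92 with DMSO (difference 0.13, SE 0.089; limma adjusted p = 0.593), and the groups overlapped. Kif24, a depolymeriser at the mother centriole, measured 7.80, 7.61 and 7.61 with DHA, against 7.55, 7.66 and 7.57 with DMSO (difference 0.083, SE 0.069). Kif2a, the relative of Kif2c that acts at spindle poles and in interphase, measured 9.65, 9.63 and 9.69 with DHA, against 9.69, 9.70 and 9.55 with DMSO. The Kif2a difference was 0.0086 (95% interval -0.12 to 0.14), and the Kif2c value of -0.26 lay outside that interval. The difference between Kif2a and Kif2c was not tested. Kif6 measured 5.18, 5.18 and 5.23 with DHA, against 5.18, 5.18 and 4.92 with DMSO (difference 0.0998, SE 0.078), where DMSO replicate 3 alone was low. Kif4-ps measured 4.44, 4.84 and 4.67 with DHA, against 4.26, 4.73 and 4.61 with DMSO.

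The other 10 above the filter, Kif1a, Kif3c, Kif5a, Kif7, Kif9, Kif12, Kif17, Kif19a, Kif26a and Kif26b, had differences between -0.050 and 0.057. A dimmer probe set of Kif7, a ciliary regulator of hedgehog signalling, gave 0.23 (SE 0.11; limma adjusted p = 0.647 over all probe sets), against -0.050 for the brighter one. Kif2b, Kif5c, Kif21a and Kif27 lay under the filter, with values between 3.81 and 4.71 and differences between -0.064 and 0.14, and entered no test. Many dim kinesins carried the same value in several arrays: 14 of the 23 other kinesins tested had at least 1 exact tie among the 6 arrays, against 2 of the 12 mitotic genes and 35.21% of all genes tested. In Kif3c, Kif9 and Kif19a all 3 DMSO values were identical, as in 1.62% of all genes tested, so their spread in the DMSO group was 0 and the SE came from the DHA arrays and the moderation.

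**Figure D4:**
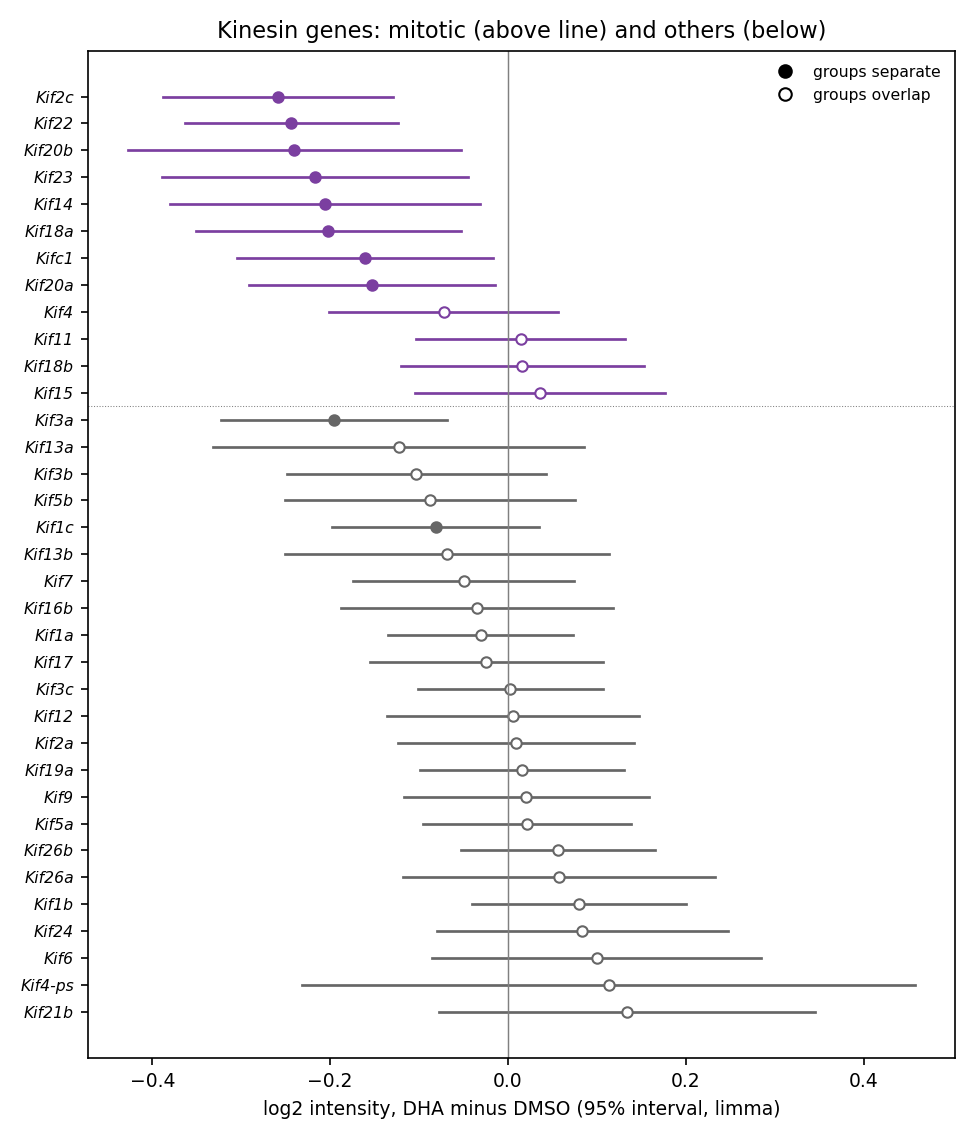
Log2 intensity, DHA minus DMSO (x axis), with the 95% interval from limma, for 12 mitotic kinesin genes above the dotted line and 23 other kinesin genes below it. Filled points mark genes whose groups did not overlap, 8 mitotic genes and Kif3a and Kif1c among the others.

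The genes that work with kinesins were read from lists chosen with earlier results of these data known, and none of them held a gene that passed the test. Spindle assembly partners had a median log2 difference of -0.091, with 8 of 13 lower. For this list and those that follow, the share of all tested genes that were lower was 48.6%. In 4 of these 13 the groups did not overlap with DHA lower, and in 2 with DHA higher, beside 8.19% and 7.64% of all tested genes. Hmmr, a spindle pole protein, had -0.24 (SE 0.052; limma adjusted p = 0.160), Aurka, the kinase of the spindle poles, -0.20 and Tpx2, its activator, -0.16. Ndc80, the kinetochore protein that holds microtubules, went the other way. It measured 10.77, 10.52 and 10.58 with DHA, against 10.09, 10.12 and 10.03 with DMSO (difference 0.54, SE 0.074; limma adjusted p = 0.066), with no overlap.

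Midzone and cytokinesis partners had a median of -0.083, with 10 of 12 lower. In 6 of these 12 the groups did not overlap with DHA lower, beside 8.19% of all tested genes, and in 0 with DHA higher, beside 7.64%. Prc1, the microtubule bundler that recruits Kif4 to the midzone, measured 9.19, 9.48 and 9.20 with DHA, against 9.61, 9.81 and 9.83 with DMSO (difference -0.46, SE 0.099; limma adjusted p = 0.155). The kinase Plk1 had -0.25, the passenger complex scaffold Incenp -0.20 and the abscission protein Cep55 -0.17. Racgap1, the other subunit of centralspindlin, named here after its value was seen, had -0.023 (SE 0.045), against -0.22 for Kif23. Genes of mitotic entry and exit had a median of -0.067, with 11 of 12 lower. The groups did not overlap, with DHA lower, in 4 of the 12, beside 8.19% of all tested genes. Cdc20, the activator of the anaphase-promoting complex, had -0.20 (SE 0.044; limma adjusted p = 0.161). The phosphatase Cdc25c had -0.19, the checkpoint kinase Bub1b -0.15 and the cyclin Ccnb2 -0.11.

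The list for the transcription of G2/M genes, which holds transcription factors and other regulators, did not lie lower. In it 3 of 13 were lower, with a median of 0.038. Within that list Cdkn1a, an inhibitor of cyclin-dependent kinases, had -0.26 (SE 0.081; limma adjusted p = 0.288), Nfyb, a subunit of NF-Y, -0.11, Nfyc, another subunit, 0.086 and the pocket protein Rbl1 0.079. Kinesins whose symbol is not Kif and a digit, and the kinesin-binding protein Kifbp, were level, with 5 of 5 between 0.0023 and 0.057. These included Cenpe, the kinetochore kinesin that brings chromosomes to the plate, which measured 9.89, 9.87 and 9.87 with DHA, against 9.83, 9.88 and 9.83 with DMSO (95% interval of the difference -0.071 to 0.13).

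Light chains, adaptors and cargo linkers had a median of -0.011, with 7 of 14 lower, where the mitochondrial adaptor Trak2 had -0.13, the light chain Klc1 -0.12, the light chain Klc3 0.13 and the scaffold Mapk8ip1 0.19. Dynein and dynactin genes, whose motor walks the opposite way to most kinesins, had a median of 0.024, with 5 of 12 lower. Among them Dctn4 had 0.18, Dync1li2 0.20, Nde1 -0.13 and Dctn2 0.10. Tubulins, the building blocks of the track, had a median of -0.15, with 7 of 8 lower. Tuba1c had -0.45 (SE 0.14; limma adjusted p = 0.287), Tubb4b -0.25, Tubb2a -0.16 and Tubg1, the nucleating gamma-tubulin, 0.15. Tubulin genes of the same class, alpha or beta, are alike in sequence, and whether their probe sets read one another was not analysed here.

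**Figure D5:**
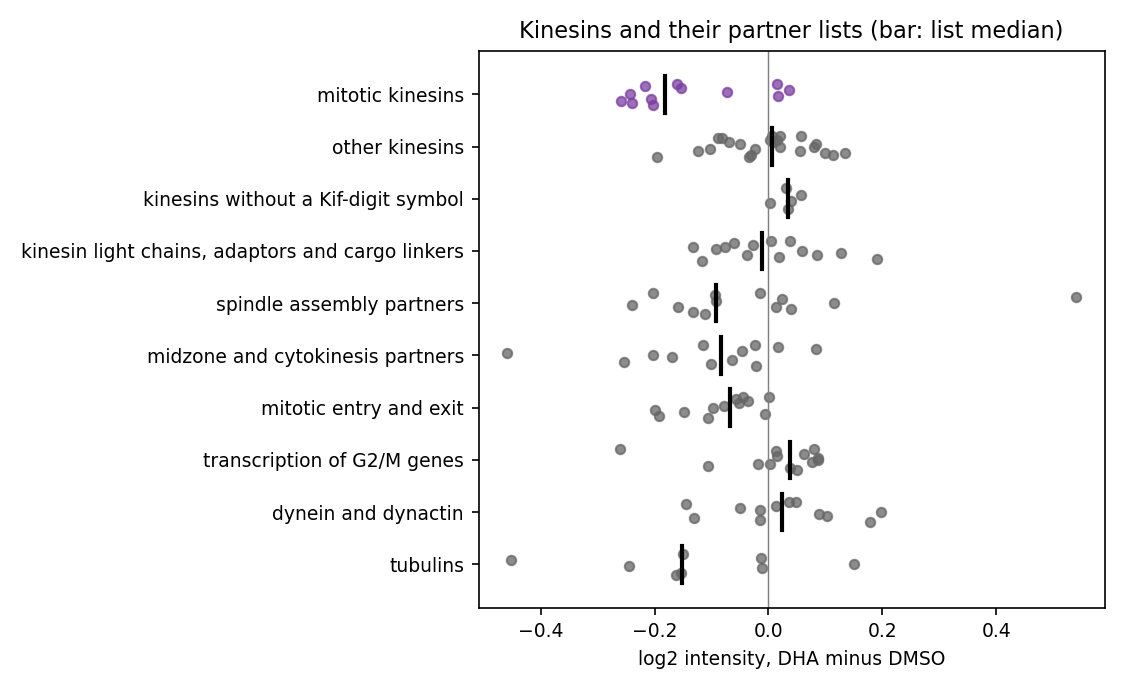
Log2 intensity, DHA minus DMSO (x axis), of each tested gene of the mitotic kinesins, the other kinesins and the lists of genes that work with them (rows), with a bar at each list's median. The mitotic kinesins have a median of -0.18. The tubulins, spindle assembly partners, midzone partners and genes of mitotic entry and exit have medians between -0.15 and -0.067. The light chains, the dynein genes and the list for transcription of G2/M genes have medians between -0.011 and 0.038. Ndc80 stands alone at 0.54.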

How the data were processed

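Biotin-labelled cRNA from 6 samples, 3 treated with DHA and 3 with DMSO, was hybridised to Affymetrix arrays, per the labels' protocols. The agent in the labels set the group, and replicate numbers only follow accession order. The values deposited by the authors are log2 intensities, 1 per probe set, made with RMA and Partek 6.6, per the submitters' processing notes, with settings that these notes do not give. RMA pulls arrays to a common distribution and tends to understate changes of dim genes.

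Gene symbols came from the annotation of the platform and were brought up to date by Entrez identifier with RefSeq (GRCm38.p6), where 23328 of 23521 probe sets with 1 gene matched. A gene was represented by its brightest probe set by mean. The 39 kinesin genes had 42 probe sets, with 2 each for Kif5b, Kif7 and Kif27. A further probe set shared by Kif3c and another gene was not used.

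Genes under the 30th percentile of means were left out (6654 genes), and DHA was compared with DMSO with limma 3.58.1 in R 4.3.3 (4 residual and 2.77 prior degrees of freedom, default moderation). The procedure was tested on 10 simulated data sets, with 200 of 15526 genes changed. It recovered 10.84% of changes of 0.25 on the log2 scale, 87.18% of changes of 0.5 and 99.41% of changes of 1. Of its calls, 4.99% were false. The extract protocol also names 2 h, and 4 h was used, as in the treatment protocol. With 3 arrays per group an exact permutation test cannot go below p = 0.1, and the number of arrays limits the precision.

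Each mitotic gene was named with its values by array, as was each other kinesin at an unadjusted p at or under 0.05, among the 5 greatest differences in either direction or among the 5 brightest. Of each partner list, up to 4 genes with the smallest p were named. The members and lists were chosen with earlier results of these data known. Alternatives were leaving out arrays, other filters, normalizations, choices of probe set and variance settings, a model term for the title code that 1 sample of each group carries, leaving out Kifc1, and other thresholds.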

Additional observations from a re-analysis of the deposited data

How the results depend on the processing

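No paired analysis was possible because replicate numbers came from accession order and the groups shared only 1 title code, on DHA replicate 2 and DMSO replicate 3. The count of kinesin genes called, 0, stayed 0 under every alternative fit and at adjusted p thresholds of 0.1 and 0.01. At an unadjusted p at or under 0.05 there were 9 of 35, all lower with DHA. Of all tested genes, 6.08% were lower and 5.94% higher at that threshold. Over all genes, 0 were called without DHA replicate 1 or 3, without any 1 DMSO replicate, or without both samples of the title code. A kinesin count of 0 was fixed in those fits and shows no stability. Without moderation 1 gene of all was called, and with each probe set tested 2. The lowest adjusted p of a kinesin over the alternatives was 0.0962, with trend and robust moderation. Of the mitotic genes, 2 were lower at an unadjusted p at or under 0.05 without the pair of samples that share the title code and 5 without moderation; fewer samples or no shared variance are part of how these are built. The median log2 difference of the mitotic genes lay between -0.21 and -0.14 when any 1 array was left out and came to -0.20 without Kifc1, and 9 to 11 of 12 were lower. The median of the other kinesins lay between -0.015 and 0.015 when any 1 array was left out, at -0.0295 with the filter at the 50th percentile and at -0.0092 without both samples of the title code; the cause was not tested. Each of the 8 mitotic genes with separate groups kept its sign under 18 alternatives, which separate groups fix when arrays are left out.

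Signs turned on leaving out 1 array, with ranges of -0.014 to 0.039 for Kif11, -0.019 to 0.067 for Kif15, -0.018 to 0.054 for Kif18b, -0.038 to 0.036 for Kif2a, -0.012 to 0.023 for Kif3c, -0.013 to 0.038 for Kif5a, -0.015 to 0.073 for Kif9, -0.044 to 0.054 for Kif12, -0.13 to 0.0076 for Kif13b, -0.083 to 0.011 for Kif16b, -0.059 to 0.023 for Kif17, -0.017 to 0.040 for Kif19a, -0.018 to 0.12 for Kif26a and -0.023 to 0.22 for Kif4-ps. With both samples of the title code left out, Kif2a had -0.025, Kif9 -0.015, Kif12 -0.0495 and Kif26a -0.0063. After median centring Kif3c had -0.0004. With the mean of probe sets Kif5b had 0.010 and Kif7 0.0895, and with the probe set of highest variance 0.11 and 0.23, since each has a dimmer probe set that runs the other way.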
